A study of Homo sapiens with 6 samples.

Results

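Genes that sense foreign or misplaced nucleic acid, relay that signal or limit it were followed in A375 melanoma cells after depletion of UBE2S. They are RIGI, IFIH1, DHX58, MAVS, TLR3, EIF2AK2, ADAR, ZBP1, CGAS and STING1. All 10 genes were found on the array through the single gene symbol that its annotation gives a probe set, and they were read by 30 of 49293 gene probe sets and make up 10 of 18132 genes. A375 is an established human melanoma cell line. One group carried a lentiviral short hairpin RNA against UBE2S, a ubiquitin-conjugating enzyme that elongates chains for the anaphase-promoting complex, and the other group is labelled control. The labels spell the target both UBE2S and UEB2S, read here as the same gene. Each group held 3 arrays from cultures labelled as biological replicates. How the control was treated, how many hairpin sequences or clones were used and the time after transduction are not given in the sources used here. In RNA of whole cultures, fewer cells that express a gene and less RNA per cell cannot be told apart.

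Cells carry several classes of nucleic acid sensor. The RIG-I-like receptors bind viral or misplaced RNA in the cytosol and signal through MAVS on mitochondria. TLR3 reads double-stranded RNA in endosomes, and cGAS reads cytosolic DNA and signals through STING. The kinase PKR, encoded by EIF2AK2, stops translation when it binds double-stranded RNA, and ZBP1 binds left-handed nucleic acid and can start cell death. ADAR edits adenosines in double-stranded RNA and thereby keeps a cell's own RNA from triggering these sensors. Many sensor genes are themselves induced by interferon, through factors that bind a DNA element in their promoters, the interferon-stimulated response element.

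That element is the sequence feature that could be looked at here. Whether it has a part in the changes given below was not tested. A search for its core, GAAA followed by any 2 bases and GAAA again, was made on both strands of RefSeq promoter windows of 300 bases (250 before and 50 from the start of transcription, GRCh38.p14). Of the 10 genes, 6 had at least 1 window, with 8 windows in all, and DHX58, ZBP1, CGAS and STING1 had none. IFIH1, EIF2AK2 and TLR3 held the core, and RIGI, MAVS and ADAR did not in these windows. Among all 35116 windows, 3.57% held it, and 4.38% of the 27305 genes with a window had a match. A match is a run of letters, not a measured binding site. The stretches given here are those of the 3 genes with the core and that of RIGI, the gene with the highest rise. They are written 5′ to 3′ on the strand of the gene, with the core in capitals. That of IFIH1 (chr2:162318685-162318854, minus strand) ends at the base before the start, that of EIF2AK2 (chr2:37156977-37157080, minus strand) ends 4 bases into the transcript, that of TLR3 (chr4:186069056-186069161, plus strand) ends 6 bases into it, and that of RIGI (chr9:32526197-32526366, minus strand) ends at the base before the start.
IFIH1: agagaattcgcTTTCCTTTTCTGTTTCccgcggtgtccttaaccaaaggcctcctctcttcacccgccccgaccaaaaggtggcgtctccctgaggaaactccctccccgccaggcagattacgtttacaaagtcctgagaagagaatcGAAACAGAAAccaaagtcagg
EIF2AK2: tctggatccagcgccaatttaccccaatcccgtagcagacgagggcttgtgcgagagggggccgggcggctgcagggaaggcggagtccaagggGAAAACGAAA
TLR3: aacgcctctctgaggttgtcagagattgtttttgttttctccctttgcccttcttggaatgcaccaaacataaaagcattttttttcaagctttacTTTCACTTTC
RIGI: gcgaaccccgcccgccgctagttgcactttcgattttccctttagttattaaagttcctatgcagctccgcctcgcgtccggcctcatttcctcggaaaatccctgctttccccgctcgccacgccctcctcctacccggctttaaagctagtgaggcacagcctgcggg
In IFIH1 the capitals hold 3 matches, a pair that overlaps between 159 and 144 bases before the start, on the opposite strand, and 1 between 21 and 12 bases before it. In EIF2AK2 the match begins 6 bases before the start and runs to base 4 of the transcript. In TLR3 it begins 4 bases before the start, lies on the opposite strand and runs to base 6.

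The values are log2 expression of each probe set relative to its median over the 6 arrays, so they show differences between arrays and no level, and genes cannot be ranked by abundance. Changes are given as the log2 value in knockdown cells minus that in controls. The targeted gene, UBE2S, fell by 2.09 (SE 0.04, adjusted p = 9.23e-08 in limma), without overlap between the groups. The spike-in transcripts for hybridization were 0.168 higher in knockdown arrays and the poly-A spike-ins 0.0978 higher, so a change is relative to the array-wide level. The difference between the 3′ and 5′ control probe sets of ACTB, a measure of RNA integrity, exceeded that of the controls by 0.191 in knockdown cells, with no overlap, and that of GAPDH by 0.0226. The part of these differences in the changes below was not tested beyond the 2 spike-in scalings. Leukocytes express many sensors, and the list used for them had 14 measured genes. Among these, HBB is a haemoglobin gene of red cells and rose by 0.41. Of the 13 others, 0 rose and 1 fell, FCER1G, by 0.14. Without HBB, the mean centred value of the list lay between -0.024 and 0.0080 in knockdown arrays and between -0.0091 and 0.010 in control arrays, which overlapped. With HBB it lay between -0.0020 and 0.015 and between -0.023 and -0.0048. Of 9 fibroblast and endothelial markers 2 rose (22.2%, LUM by 0.93 and VWF by 0.16) and 1 fell (11.1%, DCN by 0.23). Of 7 melanoma markers 2 rose (28.6%, S100B by 1.09 and TYRP1 by 0.22) and 1 fell (14.3%, MITF by 0.72). Among all genes 21.4% rose and 18.6% fell. Whether defining markers are absent cannot be read from centred values.

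The 3 RIG-I-like receptor genes, TLR3, EIF2AK2 and ADAR rose, the adaptor MAVS and the sensor ZBP1 fell, and the DNA sensing pair CGAS and STING1 did not pass the test. ZBP1 lay just under the threshold (adjusted p = 0.0492 in limma), and TLR3 lost its call under both spike-in scalings. IFIH1 and DHX58 each had 1 probe set that did not pass the test. Of the 10 genes, 6 rose and 2 fell at an adjusted p under 0.05 in limma. Among all genes 40.1% were called, 21.4% higher and 18.6% lower. The groups did not overlap for 8 of the 10 genes, where 50% of all genes did not overlap. The median change of the 10 genes was 0.36, against -0.0038 for all genes. RIGI was the only 1 of them to change at least 2-fold, as 1.06% of all genes did. At the level of probe sets, 16 of 30 rose and 5 fell, against 36.9% of all probe sets called, 19.5% higher and 17.4% lower.

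**Figure D1:**
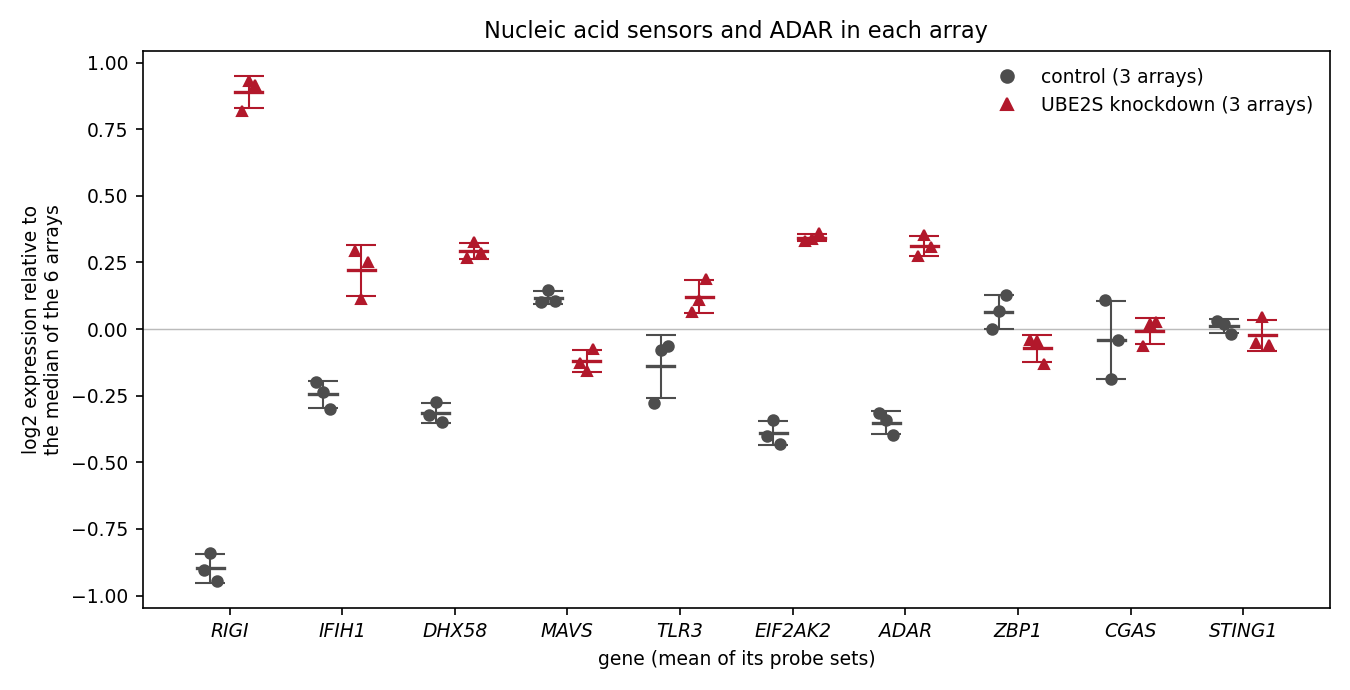
Each point is 1 array, drawn as log2 expression relative to the median of the 6 arrays (vertical axis) for the mean of a gene's probe sets, with horizontal bars for the group mean and error bars for 1 SD (n = 3). RIGI shows the widest gap, the knockdown arrays of IFIH1, DHX58, TLR3, EIF2AK2 and ADAR lie above the controls, those of MAVS and ZBP1 below, and CGAS and STING1 overlap.

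RIGI encodes RIG-I, the helicase that recognises RNA with a 5′ triphosphate. It stood at 0.82, 0.93 and 0.91 in knockdown replicates 1, 2 and 3 and at -0.90, -0.84 and -0.95 in control replicates 1, 2 and 3. All knockdown arrays were high and all control arrays low, with a gap many times the spread within either group. The group means were 0.89 ± 0.06 and -0.90 ± 0.05 (SD, n = 3). The rise of 1.79 (SE 0.05, 95% interval 1.68 to 1.89) is a 3.45-fold increase with an adjusted p of 2.49e-07 in limma, and RIGI ranked 8 among all genes ordered from the highest rise down. Its 3 probe sets rose by 1.66, 1.75 and 1.94, so that the rise did not rest on 1 of them.

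IFIH1 encodes MDA5, the relative of RIG-I that binds long double-stranded RNA. Its mean stood at 0.29, 0.11 and 0.25 in knockdown replicates 1 to 3 and at -0.20, -0.24 and -0.30 in control replicates 1 to 3. The groups did not overlap, and the mean rose by 0.46 (SE 0.05, adjusted p = 2.61e-04 in limma), or 1.38-fold. That mean joins 2 probe sets that behaved differently. The _a_at probe set was at 0.50, 0.51 and 0.77 in knockdown arrays and at -0.58, -0.50 and -0.57 in controls, a rise of 1.14 (SE 0.08, adjusted p = 2.26e-05 in limma). The plain _at probe set was at 0.087, -0.28 and -0.27 in knockdown arrays and at 0.18, 0.028 and -0.028 in controls, a change of -0.21 (SE 0.11) that did not pass the test (adjusted p = 0.157 in limma).

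The rounding of the deposited numbers places the first of these probe sets between 4 and 8 before centring on at least 1 array (middle signal class) and the second between 2 and 4 on at least 1 array (low class). The array carries 23 probe sets for background, 13 of which fell into the low class and the others above it. Detection therefore cannot be read from the class. Without the low probe set, IFIH1 rose by 1.14, and without the other it stood at -0.21 (adjusted p = 0.139 in limma). Within each array, the first probe set minus the second was 0.75 ± 0.32 in knockdown cells and -0.61 ± 0.13 in controls (SD, n = 3). The pair was compared because its probe sets had been seen to differ, so no test is given.

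DHX58 encodes LGP2, the RIG-I-like receptor without a signalling domain, which tunes the other family members. It stood at 0.27, 0.33 and 0.29 in knockdown replicates 1 to 3 and at -0.32, -0.27 and -0.35 in control replicates 1 to 3. All knockdown arrays lay above all controls. The rise of 0.61 (SE 0.04, adjusted p = 9.70e-06 in limma) corresponds to 1.53-fold. Of its 4 probe sets, 3 rose, by 0.68 and 0.73 and, for the third, to 201% of the control signal. The remaining one, of the plain _at kind, stood at 0.022, 0.19 and -0.18 in knockdown arrays and at -0.041, 0.016 and -0.016 in controls, which overlapped (change 0.023, SE 0.09). Without it, the gene's rise was 0.80 (SE 0.04).

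**Figure D2:**
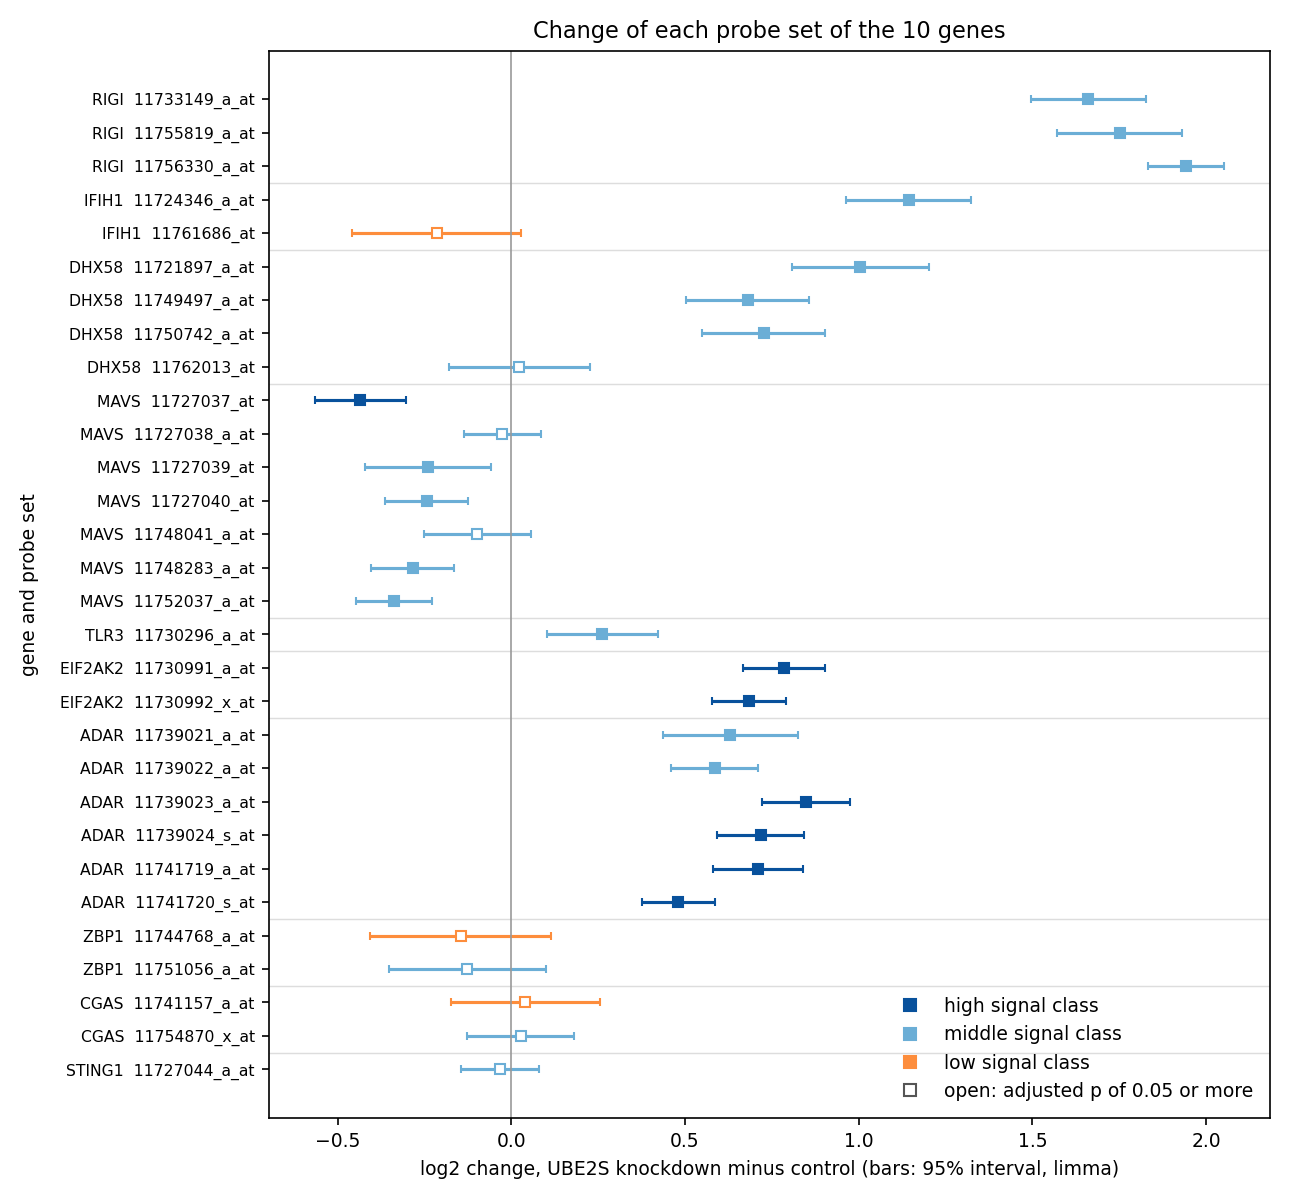
Each square is 1 probe set of the 10 genes, with its log2 change (horizontal axis) and 95% interval from limma. Filled squares passed an adjusted p of 0.05, and colour gives the signal class. All 3 probe sets of RIGI, both of EIF2AK2 and all 6 of ADAR lie to the right of 0, IFIH1 and DHX58 each have 1 open square near 0 or below it, and the 7 of MAVS spread from -0.43 to -0.026.

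MAVS, the mitochondrial adaptor that RIG-I and MDA5 share, moved the other way. It stood at -0.13, -0.16 and -0.076 in knockdown replicates 1 to 3 and at 0.10, 0.15 and 0.11 in control replicates 1 to 3. Every knockdown array was below every control array. The fall of 0.24 came to a change of -0.24 (SE 0.04, 95% interval -0.33 to -0.15, adjusted p = 0.00134 in limma), which left 84.8% of the control signal. Of its 7 probe sets, 5 fell, by 0.24 to 0.43, and 2 did not pass the test (-0.026 and -0.098). The only MAVS probe set of the high signal class (8 to 16 before centring) fell by 0.43 (SE 0.06).

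TLR3, the endosomal sensor, was read by 1 probe set. It stood at 0.065, 0.11 and 0.19 in knockdown replicates 1 to 3 and at -0.28, -0.077 and -0.065 in control replicates 1 to 3. The groups were separate but close, and control replicate 1 was the lowest array. The rise of 0.26 (SE 0.06, adjusted p = 0.0122 in limma) did not pass the test when the arrays were centred on hybridization spike-ins (0.094, adjusted p = 0.220 in limma) or on poly-A spike-ins (0.16, adjusted p = 0.0605 in limma).

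EIF2AK2, the gene of PKR, was at 0.33, 0.34 and 0.36 in knockdown replicates 1 to 3 and at -0.40, -0.34 and -0.43 in control replicates 1 to 3. The knockdown arrays differed little from each other, with an SD of 0.01, and all lay above the controls. The rise of 0.73 (SE 0.04) amounts to 1.66-fold, with an adjusted p of 3.75e-06 in limma. Both probe sets, each of the high signal class, rose (0.78 and 0.68), and the second is of the _x_at kind, which the array marks as able to bind other transcripts.

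ADAR encodes the editing enzyme ADAR1, made as a constitutive and an interferon-induced form. It stood at 0.27, 0.35 and 0.31 in knockdown replicates 1 to 3 and at -0.32, -0.34 and -0.40 in control replicates 1 to 3. Again no knockdown array reached the range of the controls. The rise of 0.66 (SE 0.04, adjusted p = 8.25e-06 in limma) is 1.58-fold. All 6 probe sets rose, from 0.48 to 0.85, with adjusted p-values between 1.70e-05 and 6.51e-04 in limma. The probe sets with the highest and the lowest rise were both of the high signal class. The array annotation does not say which form a probe set reads. The 95% intervals of the changes of ADAR (0.57 to 0.76), EIF2AK2 (0.65 to 0.82) and DHX58 (0.52 to 0.70) overlap, and the differences among these 3 genes were not tested.

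ZBP1, the sensor of left-handed nucleic acid, was at -0.041, -0.046 and -0.13 in knockdown replicates 1 to 3 and at -0.0015, 0.067 and 0.13 in control replicates 1 to 3. The groups were separate by a narrow margin. The change of -0.14 (SE 0.05) had an adjusted p of 0.0492 in limma, just under the threshold. Neither of its 2 probe sets passed the test on its own (-0.15 and -0.13, both with an adjusted p of 0.367 in limma), each overlapped between the groups, and 1 of them is of the low signal class. The call was lost without knockdown replicate 1 (-0.15), 2 (-0.15) or 3 (-0.11) and without control replicate 2 (-0.13) or 3 (-0.11). Adjusted p-values over the 6 sets that leave out 1 array lay between 0.0352 and 0.144 in limma.

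CGAS makes the second messenger that activates STING. It stood at -0.062, 0.018 and 0.025 in knockdown replicates 1 to 3 and at 0.11, -0.19 and -0.042 in control replicates 1 to 3. The controls spanned the whole range of the knockdown arrays. The change of 0.034 (SE 0.07) had a 95% interval from -0.13 to 0.20 and an adjusted p of 0.759 in limma. Of the 2 probe sets of CGAS, 1 is of the low signal class and 1 of the _x_at kind, and neither passed the test. STING1, the receptor of that messenger on the endoplasmic reticulum, was at -0.051, 0.044 and -0.061 in knockdown replicates 1 to 3 and at 0.031, 0.019 and -0.019 in control replicates 1 to 3. The groups overlapped, and the change of -0.033 (SE 0.04) had a 95% interval from -0.13 to 0.064 (adjusted p = 0.591 in limma). STING1 passed the test only when the arrays were centred on hybridization spike-ins (-0.20, adjusted p = 0.0133 in limma). STING1 was read by 1 probe set. A missed threshold does not show that either gene was unaltered. The intervals bound only the change read by these probe sets under the deposited scaling.

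**Figure D3:**
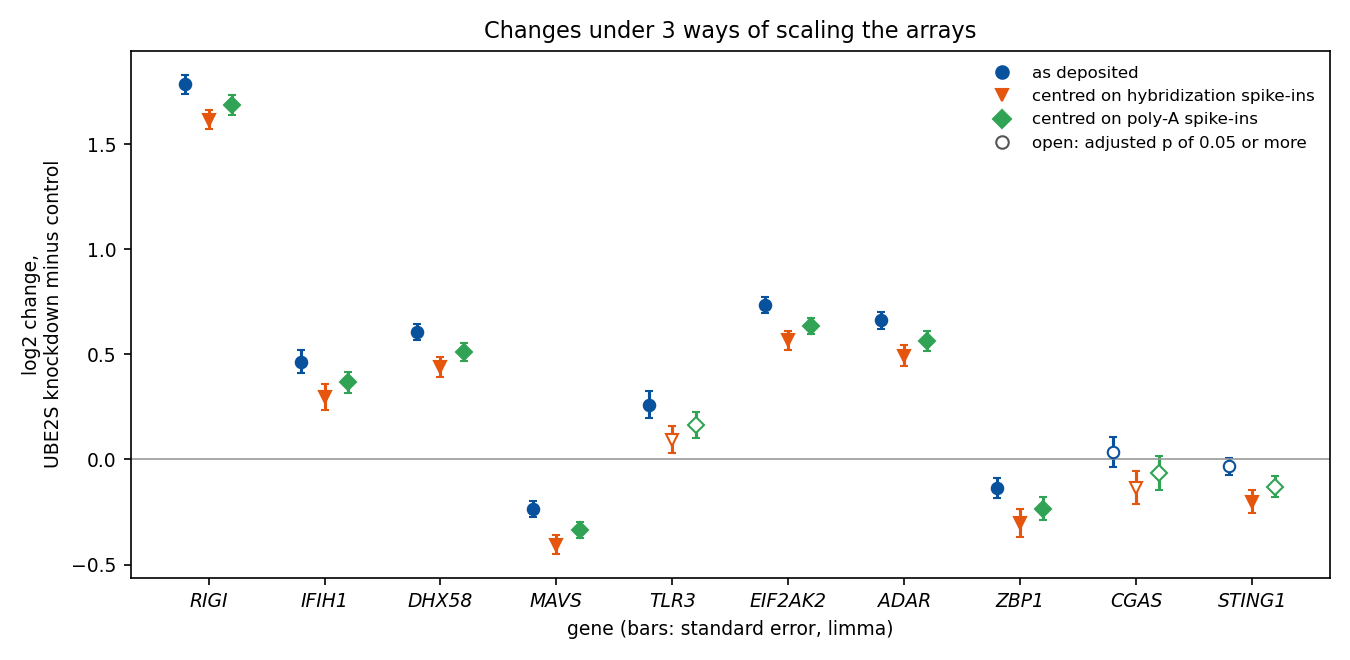
Points give the log2 change of each gene (vertical axis, bars 1 SE) with the deposited scaling and after centring the arrays on hybridization or poly-A spike-ins, and open symbols did not pass an adjusted p of 0.05 in limma. RIGI, IFIH1, DHX58, EIF2AK2 and ADAR are higher and MAVS is lower in all 3, whereas the filled or open state of TLR3 and STING1 depends on the scaling.

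With either spike-in centring RIGI, IFIH1, DHX58, EIF2AK2 and ADAR were still called higher. Relative to the hybridization spike-ins they rose by 1.62, 0.30, 0.44, 0.57 and 0.49 in that order. MAVS was lower by more, at -0.41, and so was ZBP1, at -0.30. The median change of all genes was -0.17 on that scale.

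The wider pathways were described with 7 lists that hold 141 measured genes besides the 10, of which 34 rose (24.1%) and 41 fell (29.1%), where 21.4% of all genes rose and 18.6% fell. Their median change was -0.0014, against -0.0038 for all genes. The 36 genes named from them by rule are the called genes with the largest changes, so their adjusted p-values, from 3.97e-07 to 0.0133 in limma, were set by that choice. Their standard errors lay between 0.03 and 0.08. When the arrays were centred on hybridization spike-ins, 9.73% of all genes rose and 50.7% fell, and the counts of a list on that scale are read against these shares.

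Among 26 cofactors and relays of the RIG-I-like receptors, 10 rose (38.5%) and 6 fell (23.1%), against 21.4% and 18.6% of all genes. The median was 0.076. IRF7, the transcription factor that amplifies interferon genes, was at 0.65, 0.71 and 0.83 in knockdown arrays and at -0.65, -0.76 and -0.93 in controls, a rise of 1.51. DDX60, a helicase that assists RIG-I, rose by 1.45, and TANK, a scaffold of the kinase TBK1, by 0.75. SIKE1, a suppressor of the kinase IKKε, fell by 1.04. RNF135, the ligase Riplet that ubiquitinates RIG-I, fell by 0.66, and TRAF3, which links MAVS to TBK1, by 0.59. A pair of relays was looked up after their values were seen. The change of TBK1 was 0.0035 (SE 0.03, 95% interval -0.076 to 0.083, not called), and IRF3, the factor it phosphorylates, rose by 0.40 (SE 0.05). The list thus moved in both directions, and on the scale of the hybridization spike-ins it had 6 rises and 11 falls among 26 genes, where 50.7% of all genes fell.

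**Figure D4:**
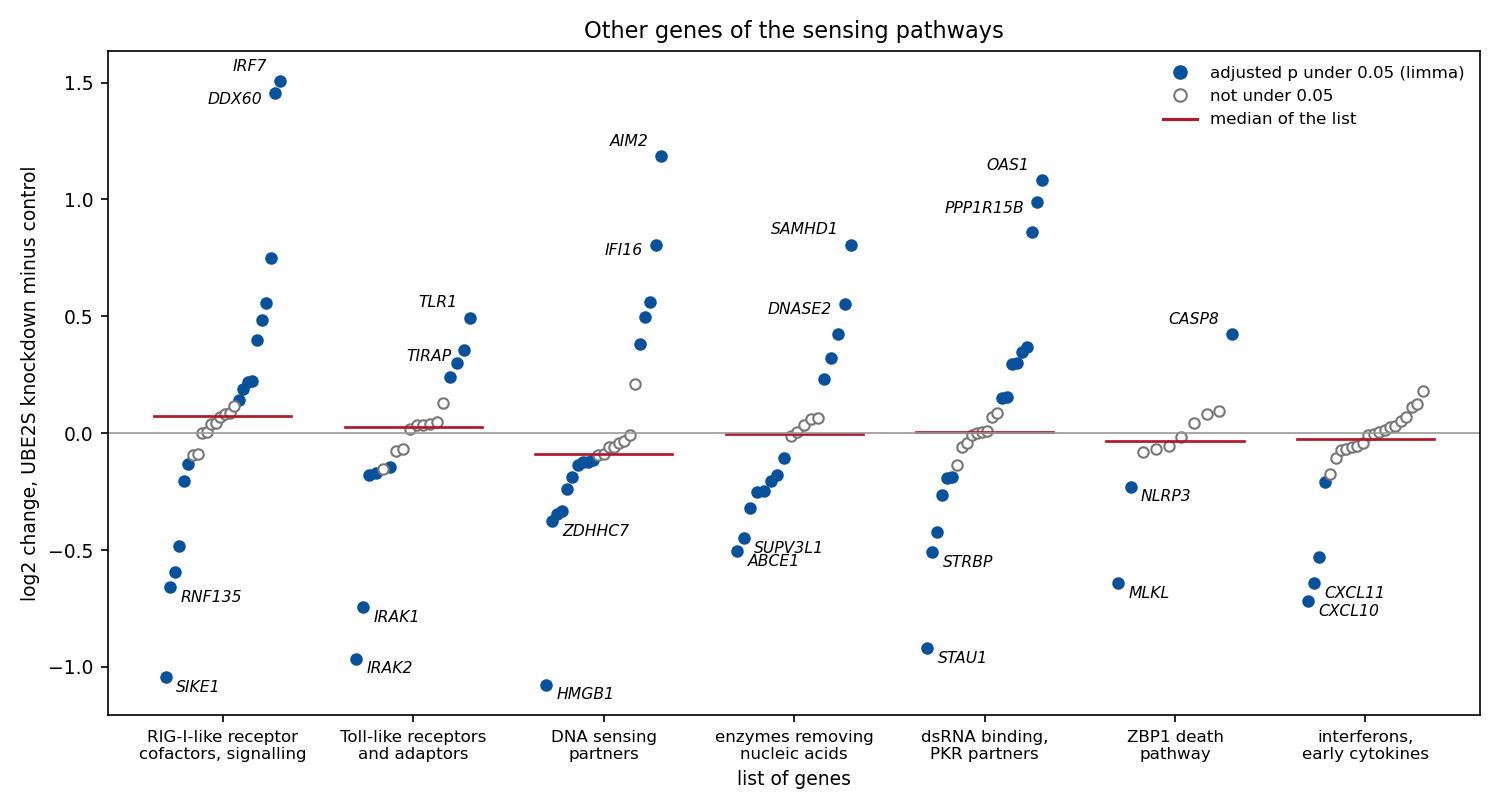
Each point is 1 gene of a list, placed by its log2 change (vertical axis, knockdown minus control), with the points of a list sorted from low to high. Filled points passed an adjusted p of 0.05 in limma and red lines are list medians. Most lists spread on both sides of 0, and the interferon and cytokine list has filled points below 0 only.

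Of 23 partners of cGAS and STING, 5 rose (21.7%) and 10 fell (43.5%), with a median of -0.090. The share of rises was near the 21.4% of all genes, of which 18.6% fell. The rises were led by 2 other DNA sensors, AIM2 (1.18), which starts an inflammasome, and IFI16 (0.81), and by the ubiquitin ligase TRIM56 (0.56). AIM2 stood at 0.59, 0.60 and 0.64 in knockdown arrays and at -0.55, -0.56 and -0.61 in controls, a gap far wider than the spread. IFI16 stood at 0.48, 0.41 and 0.37 against -0.36, -0.39 and -0.42. The chromatin protein HMGB1 fell by 1.08, with probe sets from -1.50 to -0.068. ZDHHC7, an enzyme that palmitoylates STING, fell by 0.38, and the cGAS cofactor G3BP1 by 0.35. The number of falls dropped to 6 without control replicate 1 or control replicate 2 and with the replicate number as a block. It was also 6 without _s_at and _x_at probe sets, where 21 of these genes were measured. In these settings 15.8% to 16.9% of all genes fell. It was 17 on the scale of the hybridization spike-ins, on which 50.7% of all genes fell. On that of the poly-A spike-ins it was 17 as well, where 34.7% of all genes fell.

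In the list of proteins that bind double-stranded RNA and partners of PKR, 9 of 24 rose (37.5%) and 6 fell (25%). The shares of all genes were 21.4% and 18.6%, and the median of the list was 0.0061. OAS1 and OAS2, which make the activator of RNase L, rose by 1.08 and 0.86, with probe sets from 0.42 to 1.62 and from 0.42 to 1.87. OAS3 and OASL of the same list were looked up after their values were seen. OAS3 did not pass the test on its 1 probe set (-0.0066, SE 0.07), and OASL rose by 0.35. PPP1R15B, a phosphatase subunit that reverses the mark PKR sets on eIF2, rose by 0.99. STAU1, a double-stranded RNA binding protein of RNA decay and transport, fell by 0.92, the related STRBP by 0.51 and the repressor NKRF by 0.42. ADARB1, which encodes the second active editing enzyme, was looked up after its value was seen and fell by 0.19 (SE 0.05), where ADAR rose. On the scale of the hybridization spike-ins, this list had 5 rises and 12 falls among 24 genes, a share of falls near that of all genes (50.7%).

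Of 18 enzymes that remove nucleic acids, 5 rose (27.8%) and 8 fell (44.4%), against 21.4% and 18.6% of all genes. Their median was -0.0024. SAMHD1, which depletes deoxynucleotides, rose by 0.81, and its 4 probe sets changed by 0.28 to 1.11, with 3 called. The lysosomal nuclease DNASE2 rose by 0.55 and RNASEH2A, the catalytic subunit of RNase H2, by 0.43. ABCE1, an inhibitor of RNase L and recycling factor of ribosomes, fell by 0.51. SUPV3L1, a helicase that clears mitochondrial RNA, fell by 0.45, and RNASEH1, which cuts RNA in hybrids with DNA, by 0.32.

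Of 18 Toll-like receptors and adaptors besides TLR3, 4 rose (22.2%) and 5 fell (27.8%), with a median of 0.026. Among all genes 21.4% rose, a share near that of the list, and 18.6% fell. For 5 of the 18 no probe set was above the low signal class. TLR1, a receptor for bacterial lipoproteins, rose by 0.49, the adaptor TIRAP by 0.36 and TLR6 by 0.30, and TLR6 lost its call on the scale of the hybridization spike-ins (0.13). The kinases IRAK2 and IRAK1 fell by 0.96 and 0.74. TLR4 fell by 0.18, but its 3 probe sets ranged from -0.71 to 0.27. TICAM1, the adaptor that TLR3 uses, was looked up after its value was seen and did not pass the test (-0.074, SE 0.06).

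Of 10 genes of the ZBP1 death pathway 1 rose (10%) and 2 fell (20%), with a median of -0.034. Among all genes 21.4% rose and 18.6% fell, so the share of falls was near that of all genes. CASP8, a protease that restrains this pathway, rose by 0.42. MLKL, the protein that breaches the membrane in necroptosis, fell by 0.64 on its 1 probe set. NLRP3 fell by 0.23, but only 1 of its 2 probe sets (-0.36 and -0.099) was called.

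Genes of interferons and early cytokines, some of which the sensors switch on, gave no called rise. Of 22 measured, 0 rose and 4 fell (18.2%, near the 18.6% of all genes) in limma, with a median of -0.026, and at an unadjusted p under 0.05 the counts were 1 and 5. For 14 of the 22 no probe set was above the low signal class. IFNB1, the interferon gene with which the response usually opens, was at 0.10, 0.065 and -0.026 in knockdown arrays and at 0.026, -0.10 and -0.16 in controls, which overlapped. Its change of 0.13 (SE 0.06, 95% interval -0.0081 to 0.26) did not pass the test (adjusted p = 0.127 in limma). IFNB1 was looked up after its value was seen. Without control replicate 1 it was called (0.18, adjusted p = 0.0392 in limma), as IFNA4 was without knockdown replicate 3 (0.28, adjusted p = 0.0399 in limma). With array weights, IFNA6 was called (0.13, adjusted p = 0.0289 in limma). The chemokine CXCL10 was at -0.36, -0.27 and -0.49 in knockdown arrays and at 0.27, 0.33 and 0.43 in controls, a fall of 0.72. CXCL11 fell by 0.64 and the epithelial interferon IFNE by 0.53. All knockdown arrays of CXCL10 thus lay below all controls, the reverse of the order seen for RIGI.

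For each called gene, the 3 genes with the smallest root mean square difference in log2 value over the 6 arrays were sought among all other genes. RIGI was nearest to RAB26 (0.063), ITGA7 (0.070) and EGR1 (0.080). IFIH1 was nearest to KRCC1, MYEF2 and SLC37A2 (0.035 to 0.041), and DHX58 to DCUN1D4, ABHD2 and BEX3 (0.021 to 0.023). EIF2AK2 was nearest to YPEL5 (0.017), SERP1 (0.022) and TFRC (0.023), and ADAR to LRP6, NISCH and SEMA3B (0.021 to 0.026). MAVS was nearest to DENR, COX5A and RPL31 (0.014 to 0.016). TLR3 was nearest to ANK2, LINC03009 and ZNF804A (0.034 to 0.036), and ZBP1 to ADAMTS15, RAP1B and HCRT (0.021 to 0.022). None of the 10 genes was among the 3 nearest of another. This likeness reflects a similar size of change on the same 6 arrays.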

How the data were processed

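Total RNA of 3 UBE2S knockdown and 3 control cultures of A375 was hybridized to 1 Affymetrix array each. The deposited values are log2 expression. The tools named per the submitters' processing notes are affy, RMA and limma, without their roles, and base 2 is taken from RMA. In every probe set the median over the 6 arrays is 0 (within 4.85e-07), so the authors' centring removed the levels and precision is limited by the number of arrays.

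The 10 genes and all lists were chosen with earlier results of these data known. Probe sets with 1 symbol in the array annotation (44988, of 18132 genes) were averaged per gene and tested in limma 3.58.1 (R 4.3.3; lmFit, then eBayes) on all 6 arrays, two-sided, with Benjamini-Hochberg adjustment over all genes (or all 49293 probe sets). An adjusted p under 0.05 was called, and standard errors are the moderated ones. The test was checked on simulated data. The planned filter on low signal could not be run on centred values, and the planned protein comparison was not made because protein sequences were not used here. In place of the filter, the rounding of single-precision values gave a signal class, defined after the data had been seen. Named genes are UBE2S, the 10 genes, up to 3 called genes per direction in each list and the 3 genes nearest in pattern to each called gene. Exceptions are marked in the text. Alternatives were 3 other array scalings, array weights, a robust variance model, a replicate block, other choices of probe sets and leaving out each array.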

Additional observations from a re-analysis of the deposited data

How the results depend on the processing

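The count of 6 rises among the 10 genes stayed between 5 and 6 under all alternatives except the plain _at probe sets, which measure 3 of the genes and gave 0. The count of 2 falls became 1, through ZBP1, with array weights, the robust variance model, the largest-variance probe set, without _s_at and _x_at probe sets and without the low signal class (the last 2 chosen after seeing the data), and 1 to 2 when 1 array was left out. With plain _at probe sets it was 1, and with hybridization spike-in centring it was 3, through STING1 (-0.20). IFIH1 reversed to -0.21 with plain _at probe sets and without its _a_at probe set, and DHX58 lost its call with plain _at probe sets (0.023). Relative to hybridization spike-ins, 10 of 30 probe sets of the 10 genes fell in place of 5 and 79 of 141 list genes in place of 41, while 42.4% of all probe sets and 50.7% of all genes fell. Plain _at probe sets measure 60 list genes, of which 12 rose and 11 fell, against 11% and 11.8% of all genes so measured. UBE2S kept its call in every setting that measured it. Its only probe set is of the _s_at kind, so the settings with plain _at probe sets and without _s_at and _x_at probe sets did not measure it.

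Same-numbered arrays showed no shared variation: their deviations from the group means correlated at -0.030, -0.016 and -0.10. Whether same-numbered cultures were prepared together cannot be read from these values. With the replicate block, 1 of the 10 genes fell, MAVS, and ZBP1 had an adjusted p of 0.0995 in limma. The filter on low signal was not run, because centred values hold no level. With the shorter motif core, GAAA, 2 bases and GAA, 8.11% of windows and 9.86% of genes held a match. Signal over background is unknown, and 3 arrays a group limit the precision.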
